A study of Mus musculus with 6 samples.

Results

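The miR-322 to miR-450 cluster is a group of miRNA hairpins on the mouse X chromosome that are transcribed in one direction. The members were taken by name, as every listed mature arm of miR-322, miR-503, miR-351, miR-542 and miR-450. All 10 names were found among the 685 mature miRNAs measured. The libraries came from N2a cells, a mouse neuroblastoma line that the labels give as neuron. Both groups had been differentiated with 10 µM retinoic acid over 96 h in medium with reduced serum. The RSL3 group then received 5 µM RSL3 for 24 h and the control group DMSO, the solvent of RSL3, with 3 small RNA libraries each. RSL3 inhibits GPX4, the enzyme that reduces lipid peroxides in membranes, and is used to induce the iron-dependent cell death called ferroptosis. All libraries stem from 1 tumour-derived line. Nothing in the labels ties the replicates to separate cultures, so the spread behind each p-value is that between libraries and may be technical.

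In a cluster of this kind 1 long primary transcript is cut by Drosha into hairpins, Dicer cuts each hairpin into a 5p and a 3p arm, and Argonaute keeps 1 arm or both. The mature arm finds its targets mainly through its seed, bases 2 to 8 from the 5′ end. The mouse miR-322 and miR-503 pair corresponds to human miR-424 and miR-503. It is known as a brake on the cell cycle that is switched on during muscle differentiation, where it lowers Cdc25a and D-type cyclins. The miR-542 and miR-450 hairpins lie downstream of that pair and are less well described.

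The mature sequences are shown 5′ to 3′ with the seed in capitals, because the seeds sort the members into target groups. They are RefSeq's for GRCm38.p6, and all 10 members had an entry.
mmu-miR-322-5p: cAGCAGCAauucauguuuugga
mmu-miR-503-5p: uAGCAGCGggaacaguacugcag
mmu-miR-351-5p: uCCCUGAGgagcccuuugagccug
mmu-miR-450a-5p: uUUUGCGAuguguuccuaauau
mmu-miR-450b-5p: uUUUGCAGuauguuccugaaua
mmu-miR-542-3p: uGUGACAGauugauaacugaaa
mmu-miR-542-5p: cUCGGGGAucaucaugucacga
mmu-miR-322-3p: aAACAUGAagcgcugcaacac
mmu-miR-503-3p: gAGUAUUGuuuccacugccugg
mmu-miR-450b-3p: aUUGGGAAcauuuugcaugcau

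No pair of members had all 7 seed bases in common. The seeds of miR-322-5p and miR-503-5p were the same up to base 7 and differed at the last seed base (A8G, miR-322-5p first, counted from 1 at the 5′ end). The seeds of miR-450a-5p and miR-450b-5p were the same up to base 6 (G7A, miR-450a-5p first). Outside the cluster, the miR-322-5p seed was shared by 5 listed miRNAs, miR-15a-5p, miR-15b-5p, miR-16-5p, miR-195a-5p and miR-497a-5p. The miR-351-5p seed was shared by 2, miR-125a-5p and miR-125b-5p. No other member had a listed miRNA with its seed among the 554 entries that have a RefSeq sequence.

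The 7 hairpins lay on the minus strand of chromosome X between positions 53047997 and 53054349 of GRCm38, a span of 6353 bp (GENCODE vM21, 1-based). In the direction of transcription the order was Mir322 (53054255 to 53054349), Mir503 (53053984 to 53054054), Mir351 (53053255 to 53053353), Mir542 (53049403 to 53049487), Mir450-2 (53048299 to 53048367), Mir450-1 (53048154 to 53048244) and Mir450b (53047997 to 53048078). Mir322 and Mir503 were 200 bp apart and Mir503 and Mir351 630 bp. A gap of 3767 bp separated Mir351 from Mir542, and the lincRNA Gm28730 (53051194 to 53053159) was annotated within it. The noncoding transcript C430049B03Rik (53055046 to 53057190) ended 696 bp upstream of Mir322 on the same strand. None of the 7 hairpins overlapped an exon or intron of another annotated gene. The mature miR-450a-5p is identical from Mir450-1 and Mir450-2, so its reads cannot be assigned to either hairpin. The 3p arms of Mir351, Mir450-1 and Mir450-2 were not analysed here.

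The cluster was a minor part of the miRNA pool of these cells, and its most abundant product was the 3p arm of miR-322, not the 5p arm on which the cell cycle literature centres. Values are CPM (counts per 1e6 reads) as the authors scaled them, with a TMM-type library factor. The summed cluster level was 988, 1097 and 919 CPM in DMSO libraries 1 to 3 and 1081, 934 and 1109 CPM in RSL3 libraries 1 to 3. That was 0.0874% to 0.115% of the signal of a library. The groups overlapped, with a mean of 1001 ± 89.9 CPM for DMSO against 1041 ± 94.3 CPM for RSL3 (SD, n = 3 per group), a ratio of 1.04. In bulk RNA a lower level per cell and a smaller share of cells with the miRNA cannot be told apart. Reads were recovered as whole numbers, with totals over the listed miRNAs of 4306460 to 6058006 per DMSO library and 3406276 to 4989380 per RSL3 library. The most thinly covered member, miR-542-5p, had 4 to 20 reads per library, and the most abundant, miR-322-3p, 870 to 2117.

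Over the 6 libraries, levels of mature miRNAs, which need no correction for length, ran in this order. First was miR-322-3p (mean 295 CPM, 138th of 685 by mean level), then miR-542-3p (200.1 CPM, 167th) and miR-450a-5p (180 CPM, 173rd). The library ranges of neighbours overlapped among these 3. Next were miR-351-5p (99.8 CPM) and miR-450b-5p (94.1 CPM), whose ranges overlapped, at 89.9 to 110 and 87.4 to 111 CPM. Below them miR-503-5p (71.3 CPM) and miR-322-5p (68.1 CPM) overlapped each other, at 54.1 to 80.3 and 57.9 to 91.4 CPM, and the range of miR-322-5p also reached those of miR-351-5p and miR-450b-5p. The lowest were miR-503-3p (6.69 CPM), miR-450b-3p (4.76 CPM) and miR-542-5p (2.30 CPM), whose ranges did not overlap with one another. The order compares read numbers, which also depend on how well each sequence is ligated to the adapters, and that was not measured here.

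**Figure D1:**
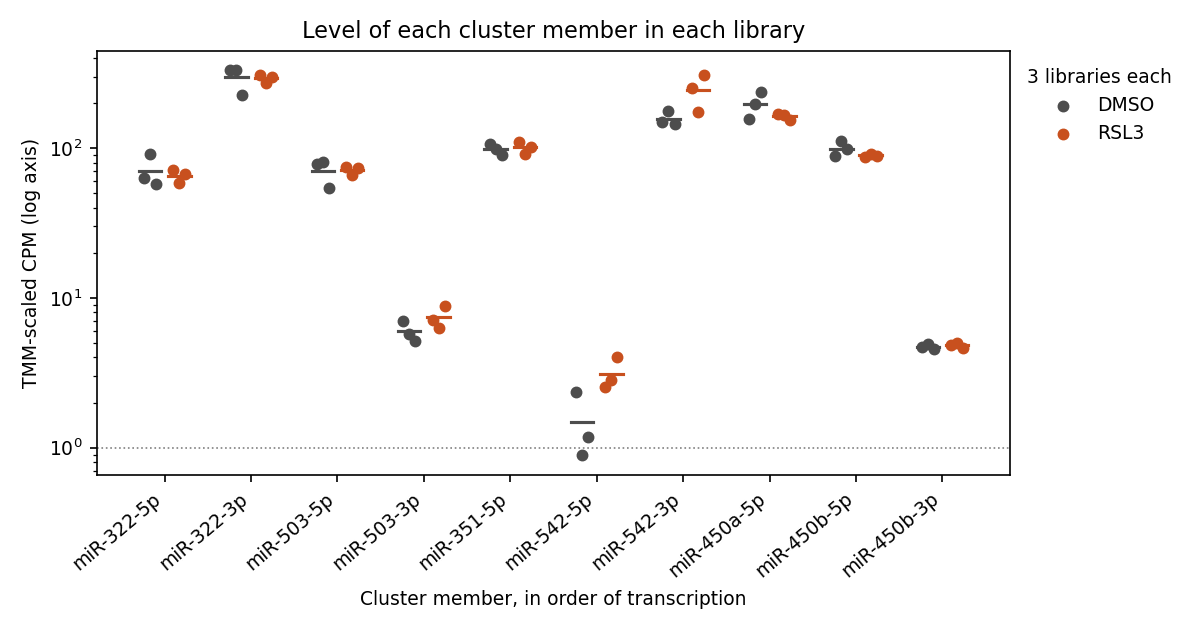
Level of each member in each library, in TMM-scaled CPM on a log axis, with members along the cluster on the x axis. Points are libraries (3 DMSO, 3 RSL3), short bars are group means and the dotted line marks 1 CPM. The 7 members above 50 CPM sit well apart from the 3 below 10 CPM, and only the miR-542-5p groups do not overlap.

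Between RSL3 and DMSO libraries no member passed the limma test, and the members with the largest log2 fold changes were both arms of miR-542. In that test, a linear model fitted to log2(CPM + 1) over all 666 miRNAs that reached 1 CPM in at least 3 libraries, 0 of the 10 members passed an adjusted p of 0.05. By comparison 0.751% of all tested miRNAs passed (0.601% higher and 0.15% lower). All 10 members passed the filter on low values. At an unadjusted p under 0.05 there were 2 members higher and 0 lower in limma, against 8.86% of all miRNAs higher and 8.41% lower. In edgeR on the recovered reads 0 members passed (0.901% of all miRNAs) and 2 had such an unadjusted p (17% of all). In DESeq2 1 member passed, higher, and 1 had such an unadjusted p (14.3% of all). DESeq2 called 19 of the 666 miRNAs higher (2.85%) and 21 lower. It gave no adjusted p for 284 of the 666, 3 members included, so the share among miRNAs that could be called was larger. Log2 fold changes were positive for 7 members and negative for 3, where 50.2% of all miRNAs were positive. The median was 0.03 for the members and 0.0013 for all miRNAs.

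The arm pair of miR-322, the first hairpin, differed between the groups by less than the spread of the libraries. For mmu-miR-322-3p, DMSO libraries 1 to 3 had 332, 331 and 227 CPM and RSL3 libraries 1 to 3 had 306, 273 and 300.2 CPM. The groups overlapped, DMSO library 3 was the lowest of the 6, and the log2 fold change was 0.0035 ± 0.15 (SE), with a 95% interval from -0.32 to 0.33 (limma adjusted p = 0.99). Its sign was negative in edgeR and DESeq2, after rescaling without the 5 most abundant miRNAs and when DMSO library 3, RSL3 library 1 or RSL3 library 3 was left out. For mmu-miR-322-5p, the member with the miR-15 and miR-16 seed, DMSO libraries had 62.8, 91.4 and 57.9 CPM and RSL3 libraries 71.2, 58.4 and 66.8 CPM. DMSO library 2 was the highest and DMSO library 3 the lowest, so the RSL3 values lay inside the DMSO range. Its log2 fold change was -0.09 ± 0.18 (SE, limma adjusted p = 0.82), and it was 0.11 without DMSO library 2.

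For mmu-miR-503-5p, which acts with miR-322-5p on cell cycle genes, DMSO libraries had 77.9, 80.3 and 54.1 CPM and RSL3 libraries 75.0, 66.5 and 73.8 CPM. All RSL3 values lay inside the DMSO range, and DMSO library 3 was again the lowest. The log2 fold change was 0.04 ± 0.17 (SE, limma adjusted p = 0.92), with a sign that turned negative after rescaling without the 5 most abundant miRNAs and without DMSO library 3. The scarce other arm, mmu-miR-503-3p, stood at 7.05, 5.77 and 5.12 CPM with DMSO and at 7.12, 6.28 and 8.82 CPM with RSL3. RSL3 library 3 was the highest, the groups overlapped, and the log2 fold change was 0.27 ± 0.22 (SE, limma adjusted p = 0.57). It was 0.15 without RSL3 library 3, 0.18 without DMSO library 3 and 0.17 with a pseudocount of 5.

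The miR-125-seed member mmu-miR-351-5p was among the steadiest, with 107, 99.0 and 89.9 CPM after DMSO and 110, 90.7 and 102 CPM after RSL3. Its log2 fold change was 0.03 ± 0.14 (SE), with a 95% interval from -0.26 to 0.32 (limma adjusted p = 0.92). The sign of that small value was negative after rescaling without the 5 most abundant miRNAs and without DMSO library 3 or RSL3 library 1.

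The main arm of miR-542, whose 3p product is described as a repressor of the cell survival gene Birc5, had 149.5, 178 and 144 CPM in DMSO libraries 1 to 3. RSL3 libraries 1 to 3 had 249.8, 174 and 305 CPM. RSL3 libraries 1 and 3 were above every DMSO library, while RSL3 library 2 lay below DMSO library 2, so the groups overlapped. The level of mmu-miR-542-3p averaged 157 ± 18.4 CPM with DMSO against 243 ± 65.8 CPM with RSL3 (SD, n = 3 per group), a log2 fold change of 0.60 ± 0.18 (SE) or 1.51-fold, with a 95% interval of 1.15-fold to 1.98-fold. It ranked 37th of 666 by p and did not pass in limma (adjusted p = 0.095) or in edgeR on the recovered reads (adjusted p = 0.075). DESeq2 on the same reads called it higher (adjusted p = 0.023). Without RSL3 library 2 limma called it too, at a log2 fold change of 0.82 (adjusted p = 0.0013). Without RSL3 library 3 the log2 fold change was 0.41 (adjusted p = 0.40), and over all 18 alternatives the adjusted p ran from 0.0013 to 0.40.

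The other arm, mmu-miR-542-5p, had 2.35, 0.888 and 1.18 CPM in DMSO libraries (15, 4 and 6 reads) and 2.54, 2.82 and 4.01 CPM in RSL3 libraries (10, 9 and 20 reads). The groups did not overlap, which also held for 24.3% of all tested miRNAs (12.3% with RSL3 higher), and the nearest libraries were 2.35 and 2.54 CPM. Its log2 fold change was 0.77 ± 0.29 (SE, limma adjusted p = 0.19). The size of this value depended on the pseudocount and the tool, at 0.33 with a pseudocount of 5, 1.03 in edgeR (adjusted p = 0.22) and 1.07 in DESeq2, which gave no adjusted p. The limit that a count of 0 allows, 3 reads, was 0.470 to 0.941 CPM in these libraries, so DMSO library 2 was close to it. This limit covers counting error only.

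The miR-450 arms at the downstream end had log2 fold changes at or below 0.03, without a call. For mmu-miR-450a-5p, DMSO libraries had 156, 196 and 238 CPM and RSL3 libraries 167, 165 and 155 CPM. DMSO libraries 2 and 3 stood above the other 4, DMSO library 1 lay among the RSL3 values, and the log2 fold change was -0.25 ± 0.15 (SE, limma adjusted p = 0.40). It was -0.41 without DMSO library 1 (limma adjusted p = 0.17) and -0.10 without DMSO library 3. For mmu-miR-450b-5p, DMSO libraries had 88.2, 111 and 97.8 CPM and RSL3 libraries 87.4, 91.6 and 89.0 CPM, a log2 fold change of -0.14 ± 0.13 (SE, limma adjusted p = 0.61). DMSO libraries 2 and 3 were again the highest, and the log2 fold change was -0.22 without DMSO library 1 and -0.056 without DMSO library 2. The scarce mmu-miR-450b-3p had 4.53 to 5.02 CPM over the 6 libraries (16 to 30 reads each) and a log2 fold change of 0.03 ± 0.22 (SE, limma adjusted p = 0.96), which was negative under quantile normalization and after rescaling without the 5 most abundant miRNAs.

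**Figure D2:**
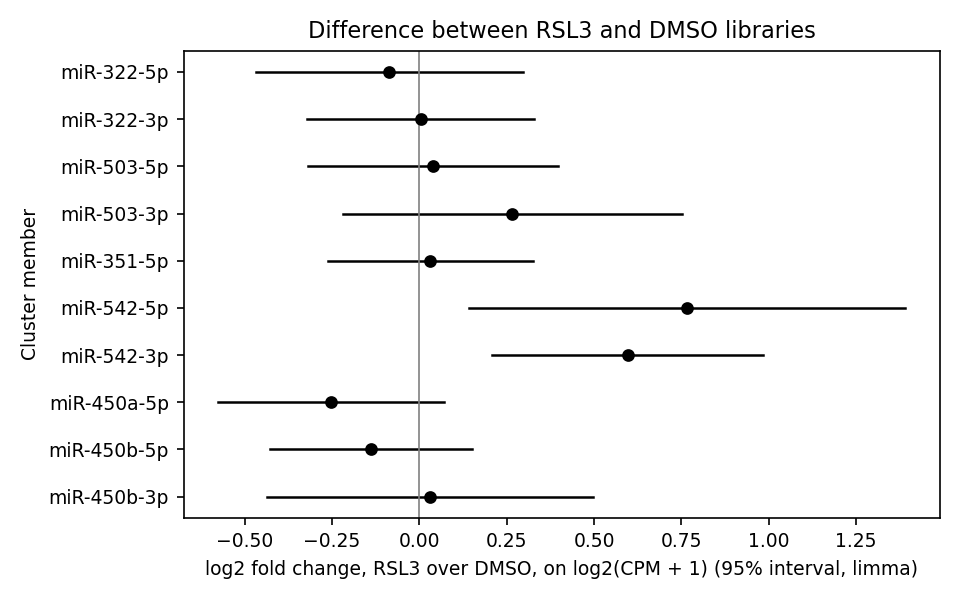
Log2 fold change of each member, RSL3 over DMSO, on the log2(CPM + 1) scale, with members on the y axis in order along the cluster. Points are limma estimates from 3 libraries per group and lines are 95% intervals. The intervals of miR-542-3p (0.21 to 0.98) and miR-542-5p (0.14 to 1.39) lie above 0 before adjustment for the number of miRNAs, and the other 8 cross 0.

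The leading arms of the adjacent Mir322 and Mir503 hairpins had nearly the same profile over the libraries, and miR-450a-5p and miR-542-3p were farthest from it among the 7 members compared. The likeness of 2 miRNAs was measured as the root mean square distance between their log2(CPM + 1) values, each centred over the 6 libraries, with miR-322-3p as the reference and 416 other miRNAs of at least 10 CPM. The nearest of all 416 was miR-503-5p, from the adjacent hairpin, at a distance of 0.023, where the median miRNA was at 0.28. The upstream members miR-351-5p (0.13, 17th) and miR-322-5p (0.17, 46th) came next among the cluster. The downstream miR-450b-5p was at 0.22 (120th), miR-450a-5p at 0.37 (352nd) and miR-542-3p at 0.38 (362nd). The 5 nearest miRNAs outside the cluster were miR-196a-5p (0.072), a Hox-cluster miRNA, miR-17-5p (0.095), and the X-linked miR-465c-3p, miR-465a-3p and miR-465b-3p (0.095 each). Of these, miR-465a-3p and miR-465b-3p had the same values in every library and are not separate measurements. With the same seed and nearly the same mean (1758 against 1771 CPM), miR-465c-3p may not be a separate one either. All libraries enter each distance, so it describes these 6 libraries and carries no test.

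The ratio of miR-503-5p to miR-322-3p was 0.235, 0.243 and 0.239 in DMSO libraries 1 to 3 and 0.245, 0.244 and 0.246 in RSL3 libraries 1 to 3. Its coefficient of variation over the 6 libraries was 1.77%. This was below the counting error of miR-503-5p alone, 4.49% to 6.87% at 212 to 497 reads per library. The reads of miR-322-3p add a counting error of 2.17% to 3.39%. A ratio is not known more closely than its counting error allows. The small spread is thus no measure of how tightly these 2 members were linked, and miR-503-5p was singled out as the nearest of 416 miRNAs. Both members were lowest in DMSO library 3. The ratio of miR-542-3p to miR-322-3p varied far more, at 0.451, 0.538 and 0.634 in DMSO and 0.818, 0.638 and 1.02 in RSL3 libraries. The 3 RSL3 ratios were above the 3 DMSO ratios, with RSL3 library 2 and DMSO library 3 nearly level. The ratios of miR-503-5p, miR-503-3p and miR-542-5p to miR-322-3p did not overlap either, while those of the remaining members did. For miR-503-5p (0.243 in DMSO library 2, 0.244 in RSL3 library 2) the nearest values lay within counting error. The same was true of miR-503-3p (0.0226 in DMSO library 3, 0.0230 in RSL3 library 2), whose counting error was 14.9% to 22.4%. For miR-542-5p the counting error was 22.4% to 50.0%. The share of non-overlapping ratios over all miRNAs was not computed. For CPM levels the groups did not overlap in 24.3% of all tested miRNAs. The share of miR-542-3p in the summed cluster was 15.1%, 16.2% and 15.6% in DMSO and 23.1%, 18.6% and 27.5% in RSL3 libraries. These ratios were examined after the values had been seen and were not tested.

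**Figure D3:**
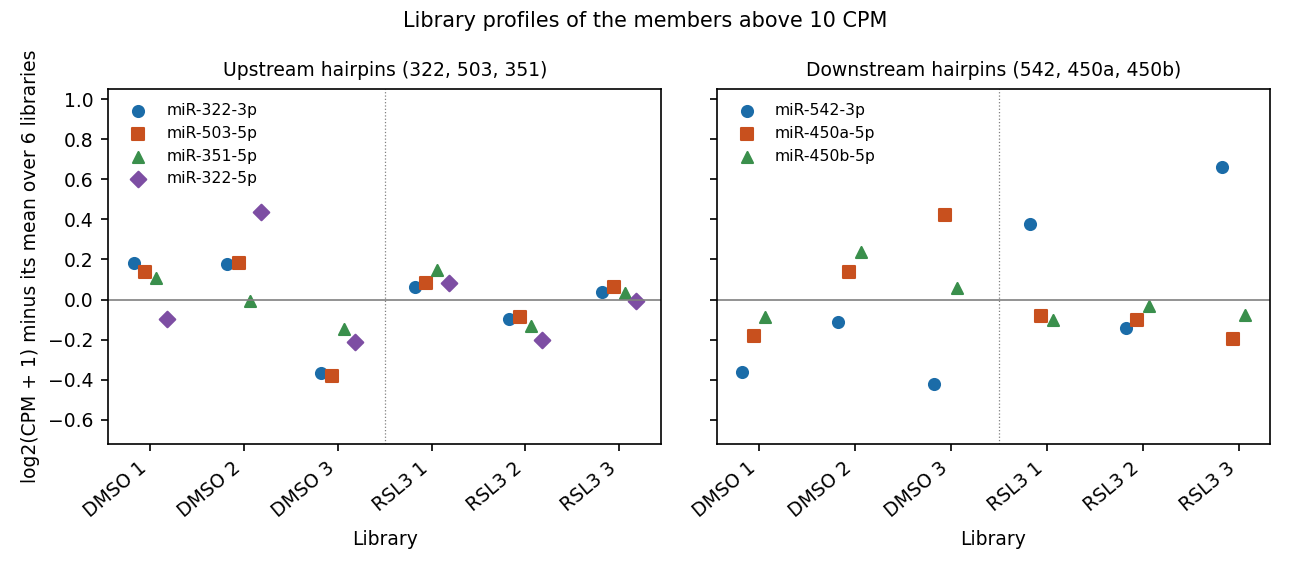
Library profiles of the 7 members above 10 CPM, as log2(CPM + 1) minus the mean over the 6 libraries, for the upstream hairpins (left) and the downstream hairpins (right). Each symbol is 1 member in 1 library. On the left miR-322-3p and miR-503-5p lie on each other in every library, while on the right miR-542-3p is highest in RSL3 libraries 1 and 3 and miR-450a-5p in DMSO library 3.

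The arms of the 4 hairpins with both arms measured were unequal, and the side of the leading arm differed along the cluster. The hairpins are shown with the leading arm in capitals (RefSeq, GRCm38.p6).
Mir322: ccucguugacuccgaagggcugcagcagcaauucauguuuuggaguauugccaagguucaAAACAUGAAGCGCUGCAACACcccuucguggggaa
Mir503: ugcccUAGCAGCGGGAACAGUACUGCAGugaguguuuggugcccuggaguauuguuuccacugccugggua
Mir542: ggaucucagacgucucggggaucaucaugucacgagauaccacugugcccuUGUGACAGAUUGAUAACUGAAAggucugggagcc
Mir450b: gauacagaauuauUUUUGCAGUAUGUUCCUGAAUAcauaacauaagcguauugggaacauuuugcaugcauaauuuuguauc

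In miR-322 the 3p arm held 3.62 to 5.28 times the CPM of the 5p arm in DMSO libraries and 4.29 to 4.68 times in RSL3 libraries, and it led in all 6. In miR-542 the 3p arm led by 61.7 to 200.5 times over the 6 libraries, and the 5p arm rests on 4 to 20 reads per library. The cause of this wide range was not tested. In miR-503 the 5p arm held 8.36 to 13.9 times the CPM of the 3p arm, and in miR-450b 18.1 to 22.7 times. The leading arm started with U in 3 of these 4 hairpins and with A in miR-322, and the other arm started with C (miR-322, miR-542), G (miR-503) or A (miR-450b). For 130 hairpins both arms reached 1 CPM in at least 3 libraries and both sequences were known. Among these the leading arm started with A or U in 73.1% and the other arm in 56.2%. For U alone these shares were 53.1% and 24.6%.

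No difference in arm balance between RSL3 and DMSO libraries passed the test in this cluster. On the log2 scale of (5p CPM + 1)/(3p CPM + 1), 0 of the 4 hairpins passed in limma over 182 hairpins, of which 1.65% passed, and 0 of the 4 had an unadjusted p under 0.05 (22.5% of all). The log2 ratio of miR-322 was -2.06 ± 0.29 in DMSO and -2.15 ± 0.06 in RSL3 libraries (SD, n = 3 per group), a difference of -0.09 ± 0.18 (SE, limma adjusted p = 0.84). For miR-503 the difference was -0.23 ± 0.22 (SE, limma adjusted p = 0.63) and for miR-450b -0.17 ± 0.21 (SE, limma adjusted p = 0.71). For miR-542, in which both arms were nominally higher after RSL3, the ratio was -6.04 ± 0.54 and -5.87 ± 0.32, a difference of 0.17 with a 95% interval from -0.47 to 0.81 (limma adjusted p = 0.82). The sign of this difference was negative with a pseudocount of 5 and without DMSO library 2 or RSL3 library 2, and that of miR-322 was positive without DMSO library 2.

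**Figure D4:**
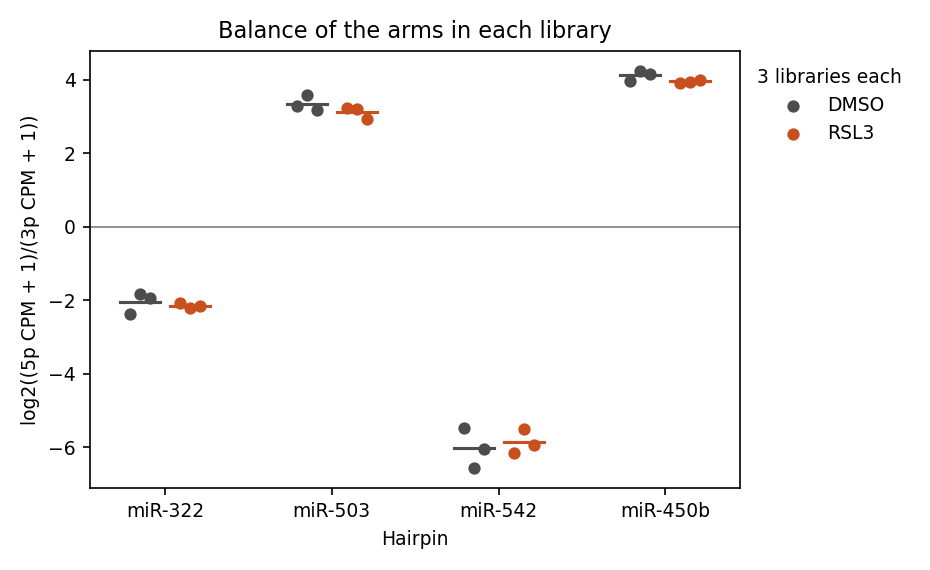
Log2 ratio of the 5p to the 3p arm, (5p CPM + 1)/(3p CPM + 1), for the 4 hairpins with both arms measured. Points are libraries (3 DMSO, 3 RSL3) and short bars are group means. Hairpins miR-322 and miR-542 lie below 0 (3p leading) and miR-503 and miR-450b above it, and the groups overlap within each hairpin.

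Of the miRNAs that carry the miR-322-5p seed, miR-16-5p and miR-15b-5p had higher mean levels than miR-322-5p, and miR-195a-5p, miR-15a-5p and miR-497a-5p had lower ones (60.1, 24.7 and 12.1 CPM over the 6 libraries, against 68.1 CPM). Both relatives of miR-351-5p had higher mean levels than that member. Together the 5 miRNAs with the miR-322-5p seed held 1275 ± 137 CPM with DMSO and 1364 ± 112 CPM with RSL3 (SD, n = 3 per group), where miR-322-5p held 70.7 ± 18.1 and 65.4 ± 6.50 CPM. The most abundant was miR-16-5p (972 ± 102 and 1080 ± 79.5 CPM, log2 fold change 0.15, limma adjusted p = 0.53). The 2 miR-125 relatives of miR-351-5p held 627 ± 49.3 and 724 ± 42.0 CPM, with miR-125b-5p at 0.35 (log2 fold change, limma adjusted p = 0.17) and miR-125a-5p at 0.02 (limma adjusted p = 0.94). Of the 7 seed relatives 0 passed in limma, edgeR or DESeq2, 4 had positive and 3 negative log2 fold changes, and the median was 0.02. At an unadjusted p under 0.05 in limma, 1 was higher (miR-125b-5p) and 1 lower (miR-15a-5p, log2 fold change -0.40). Over all tested miRNAs these shares were 8.86% and 8.41%.

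Among other miRNAs of cell cycle control, a list of brakes on proliferation (let-7, miR-34, miR-15 and miR-16, miR-26, miR-103 and miR-107) had 20 of 21 names measured. Of these 0 passed in limma in either direction, with 7 positive and 13 negative log2 fold changes and a median of -0.11. At an unadjusted p under 0.05, 0 were higher and 3 lower (let-7c-5p, let-7g-5p and miR-15a-5p). For this list and those below, the shares over all tested miRNAs were 8.86% higher and 8.41% lower at that p, and 50.2% positive. The let-7 names in the list have the same seed, so they are not unrelated miRNAs. The most abundant were let-7c-5p (log2 fold change -0.35, limma adjusted p = 0.19), let-7f-5p (-0.04, limma adjusted p = 0.87) and miR-26a-5p (-0.11, limma adjusted p = 0.67). In a list of 11 promoters of proliferation (the miR-17 and miR-25 clusters, miR-221 and miR-222), 0 passed in limma, 3 log2 fold changes were positive and 8 negative, and the median was -0.03. Unadjusted, 0 were higher and 1, miR-19a-3p, was lower. The most abundant were miR-25-3p (log2 fold change -0.12), miR-92a-3p (-0.19) and miR-93-5p (-0.03), and their limma adjusted p-values were 0.67, 0.43 and 0.90. A miRNA was listed as X-linked if any of its copies lies on X, and only the 554 of 685 entries with a RefSeq sequence could be listed. In that list miR-465a-3p and miR-465b-3p, which have equal values, count separately, as does miR-465c-3p, whose mean is close to theirs. The 70 other X-linked miRNAs tested had a median of -0.02, 29 positive and 41 negative log2 fold changes and 0 calls in limma, with 5 higher and 3 lower unadjusted. The 5 were miR-325-3p, miR-500-3p, miR-465a-5p, miR-743b-3p and miR-471-5p, and the 3 were miR-374b-5p, miR-98-5p and miR-652-3p. Of the 70, edgeR called 0 and DESeq2 2, miR-325-3p (higher) and miR-374b-5p (lower). Over all 666 miRNAs edgeR called 0.901%, and DESeq2 called 19 higher and 21 lower. The most abundant X-linked miRNA outside the cluster was miR-881-3p (log2 fold change 0.40, limma adjusted p = 0.32), followed by miR-465c-5p (0.01) and miR-470-5p (-0.08).

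**Figure D5:**
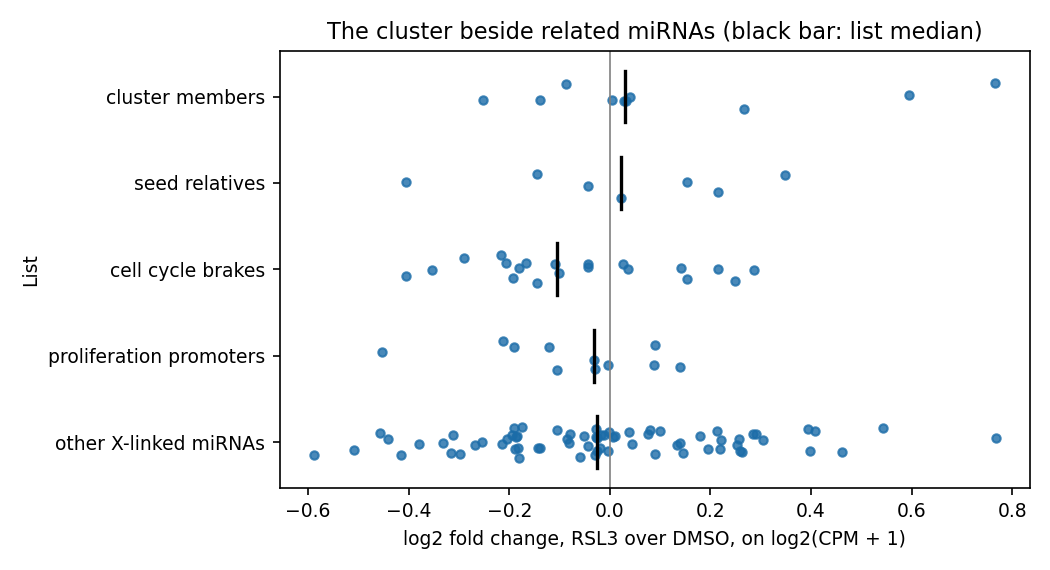
Log2 fold change, RSL3 over DMSO, on the log2(CPM + 1) scale, for the 10 cluster members, 7 seed relatives, 20 cell cycle brakes, 11 proliferation promoters and 70 other X-linked miRNAs. Each point is 1 miRNA with its vertical place drawn at random, and black bars are list medians, which lie between -0.11 and 0.03. Some miRNAs stand in more than one list, and miR-542-3p and miR-542-5p are the highest of the cluster at 0.60 and 0.77.

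As a check of the labelled cell type, all 5 neuronal miRNAs were present. Presence alone does not set neurons apart, since all 4 muscle, 2 endothelial and 2 glial markers were present too. The most abundant neuronal one was miR-218-5p (13919 to 19789 CPM over the 6 libraries) and the least abundant miR-138-5p (73.5 to 97.0 CPM), while miR-124-3p, the most neuron-restricted, was at 135 to 221 CPM. The endothelial miR-126a-3p (mean 708 CPM) and the epithelial miR-203-3p (401 CPM) were above miR-124-3p (164 CPM). Both were below miR-218-5p, miR-9-5p and miR-128-3p. The sum of all 5 neuronal miRNAs ran from 21230 to 25285 CPM with DMSO and from 19405 to 24695 CPM with RSL3. Muscle markers, relevant because this cluster is also active in muscle, summed to 156 to 276 CPM with DMSO and 123 to 186 CPM with RSL3. Of these 4, miR-1a-3p ran from 65.8 to 185 CPM, miR-499-5p from 50.5 to 82.3 CPM, miR-133a-3p from 1.02 to 5.71 CPM and miR-206-3p from 1.02 to 2.76 CPM. All 4 had negative log2 fold changes, where 50.2% of all miRNAs were positive. In limma 1 had an unadjusted p under 0.05 (miR-133a-3p), and 8.41% of all miRNAs were lower at that p. Endothelial markers (2 of 2 measured) summed to 642 to 701 CPM with DMSO and 781 to 907 CPM with RSL3, blood and immune markers (2 of 4) to 61.9 to 89.7 and 64.0 to 121 CPM, epithelial markers (3 of 4) to 394 to 457 and 355 to 446 CPM, glial markers (2 of 2) to 133 to 175 and 139 to 185 CPM, and pluripotent cell markers (1 of 4) to 0.222 to 1.57 and 0.508 to 2.21 CPM. None of these marker miRNAs passed in limma or edgeR, and DESeq2 called 1, miR-126a-3p, higher. The endothelial sum, mostly miR-126a-3p, was higher in the RSL3 libraries, and the 2 arms of miR-126a differed in direction. Here miR-126a-3p had 614 ± 29.8 CPM with DMSO and 802 ± 72.5 CPM with RSL3, and miR-126a-5p had 58.5 ± 4.95 and 42.5 ± 9.29 CPM (SD, n = 3 per group), a log2 fold change of -0.47 (limma adjusted p = 0.17). The part of these markers in the miR-542 difference was not tested.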

How the data were processed

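Small RNA libraries of 6 N2a samples were analysed from 1 table per library. Per the submitters' processing notes, cutadapt, Bowtie, edgeR and GRCm38 were used. Their settings, the annotation release and the handling of multiply mapping reads are not stated there. The deposited values are a signal that the authors named CPM. Sums of 949375 to 1068892 per library and whole multiples of 1 step (100% of values within 0.01 of a whole read) gave read counts and TMM factors of 0.936 to 1.05. Plain CPM had been assumed in the design, and the test was kept.

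R 4.3.3 with limma 3.58.1 was run on log2(CPM + 1) with a variance trend, two-sided, with Benjamini-Hochberg adjustment over all tested miRNAs. Such fold changes understate the change of low miRNAs. edgeR 4.0.16 and DESeq2 1.42.0 (no adjusted p for 284 miRNAs, 3 of them members) were run on the recovered reads. Arm ratios were fitted over all hairpins with both arms. Scripts were tested on simulated data. Replicates differed by far more than counting noise (chi-square over its degrees of freedom, 73.0 to 257), so none was a copy.

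The members and lists were chosen with earlier results of these data known. All 10 members are named, with the 3 most abundant and any called miRNAs of each list and the 5 nearest profiles. List miRNAs named with an unadjusted p or a DESeq2 call only, and single markers, lie outside that rule and were picked once their values were known.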

Additional observations from a re-analysis of the deposited data

How the results depend on the processing

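Alternatives changed the pseudocount, filter, scaling, variance model, tool and replicate block, or left out 1 library. The cause of the changes was not tested, except that fewer miRNAs are tested under a 10 CPM filter, which removed miR-503-3p, miR-450b-3p and miR-542-5p. Members called higher, 0 as reported, were 1 in DESeq2 and ran from 0 to 1 over the fits without 1 library. Members called lower and cluster hairpins with a changed arm ratio were 0 throughout, and the summed cluster ratio, 1.04, ran from 0.999 to 1.09 with a library left out. Over all miRNAs, higher calls (4) were 19 in DESeq2, 1 with limma without trend, and 1 to 14 over the fits without 1 library. Lower calls (1) were 3 with a 10 CPM filter, 0 with median centring or without trend, 9 once the 5 most abundant miRNAs were left out of the scaling, 2 in edgeR, 21 in DESeq2 and 0 to 12 with a library left out. Changed arm ratios (3) were 12 with a pseudocount of 5, 8 with a 10 CPM filter, 5 without trend and 1 to 3 with a library left out.

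Some signs turned, none of them of a called value. After rescaling without the 5 most abundant miRNAs the log2 fold change was -0.049 for miR-322-3p, -0.021 for miR-351-5p, -0.016 for miR-450b-3p and -0.012 for miR-503-5p. It was -0.063 for miR-450b-3p under quantile normalization, and -0.019 in edgeR and -0.011 in DESeq2 for miR-322-3p. The miR-542 arm difference was -0.25 with a pseudocount of 5. With a library left out, ranges that crossed 0 were -0.18 to 0.10 (miR-322-3p), -0.21 to 0.11 (miR-322-5p), -0.034 to 0.11 (miR-351-5p) and -0.14 to 0.14 (miR-503-5p), and for arm differences -0.25 to 0.018 (miR-322) and -0.10 to 0.44 (miR-542). Ranges on 1 side of 0 were -0.41 to -0.10 (miR-450a-5p), -0.22 to -0.056 (miR-450b-5p), 0.15 to 0.37 (miR-503-3p) and 0.59 to 1.01 (miR-542-5p), and for arm differences -0.32 to -0.11 (miR-503) and -0.25 to -0.11 (miR-450b). Depth limits miR-542-5p most, at 4 to 20 reads.

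With the replicate number as a block, higher calls were 1, lower calls 0 and changed arm ratios 1, and no member was called. Same-numbered libraries did not deviate together (r of -0.35, -0.33 and -0.19 across miRNAs), and 0 of the 3 DMSO libraries correlated best with its own number. With 3 libraries per group, each centred on its group mean, this cannot show whether a number marks a shared culture or day. The labels do not say.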
